A study of Mus musculus with 12 samples.

Results

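Microglia are the resident macrophages of the brain, and 9 genes that mark them were followed through bulk RNA sequencing of mouse brain. The genes were listed by symbol, with earlier results of these data already known: Csf1r, Cx3cr1, P2ry12, Trem2, Tmem119, Aif1, C1qa, C1qb and C1qc. Each of the 9 symbols matched a single Ensembl gene among the 56748 genes of the deposited count table, and all 9 were among the 17995 genes with enough counts to be tested. C1qa, C1qb and C1qc lie on chromosome 4, Trem2 and Aif1 on chromosome 17, P2ry12 on 3, Tmem119 on 5, Cx3cr1 on 9 and Csf1r on 18. The study compared wildtype mice with mice carrying a conditional Notch knockout, labelled htr3a Notch KO, each with or without valproic acid before birth. The tissue is labelled brain, and the design text gives adult forebrain. Each of the 4 groups had 3 libraries: untreated wildtype, untreated knockout, wildtype after valproic acid and knockout after valproic acid. The sources used here do not state which Notch gene was deleted, by which driver, or at what dose and day valproic acid was given. Valproic acid, a drug against epilepsy, inhibits histone deacetylases, and exposure of pregnant rodents to it is used to model features of autism.

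Microglia enter the brain from the yolk sac early in development and depend for survival on CSF1R, a receptor tyrosine kinase for CSF1 and IL-34. In the healthy brain they survey the tissue, and they carry P2RY12, a receptor for ADP, and CX3CR1, the receptor for the neuronal chemokine fractalkine. They also make most of the brain's C1q, the complement protein that tags synapses and debris for removal, and clear lipids and debris through TREM2. In bulk tissue a lower level of such a gene can come from fewer microglia or from less RNA per cell, and these cannot be told apart.

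Library totals ranged from 16887885 to 24944681 counts, and no pair of libraries was identical. The labels do not say whether libraries came from separate mice, so p-values measure only the spread between these libraries, which may be partly technical. Among the Notch genes, Notch1 lay at 16.63 to 19.98 CPM (counts scaled to the library total) in untreated wildtype and at 16.4 to 17.6 in untreated knockout, and Notch2 to Notch4 also had overlapping ranges in these groups. Htr3a, the gene named in the genotype label, was at 3.42 to 4.91 CPM in untreated wildtype and 9.41 to 10.6 CPM in untreated knockout. The exposed groups had 5.18 to 6.66 CPM (wildtype) and 9.93 to 10.8 CPM (knockout). Htr3b was at 0 CPM in untreated wildtype and 0 to 0.051 CPM in exposed wildtype. In the knockout it was at 3.58 to 4.77 CPM untreated and 4.22 to 4.92 CPM exposed. The cause of these Htr3a and Htr3b differences was not tested. Xist, which is expressed from the inactive X chromosome, had 12 counts in replicate 3 of exposed wildtype and 6 in replicate 3 of exposed knockout, against 5919 to 10767 in the other 10 libraries. The 8 hindbrain and midbrain markers summed to 9.73 to 20.2 CPM a library, most of it Cbln1, and Hoxb3 and Hoxb5 had 0 counts. Replicate 1 of the untreated knockout stood apart in the microglia genes, and the values it moves most are given with and without it. It was singled out after the values were seen, so values without it are descriptions only.

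Per length of transcript, the chains of C1q were the most abundant of the 9 genes. The mean over the 12 libraries, in CPM per kilobase of the principal transcript, was 51.5 for C1qa, 49.5 for C1qb and 34.1 for C1qc, whose products assemble together into C1q. Trem2 followed at 18.4, Csf1r at 15.8 and P2ry12 at 13.3. Cx3cr1, at 10.5, Tmem119, a membrane protein used to tell microglia from other macrophages, at 10.4, and Aif1, which encodes the actin-binding protein IBA1, at 9.82 closed the order. The order of neighbours was the same in 12 of 12 libraries, with no overlap of ranges, for C1qb over C1qc, C1qc over Trem2 and P2ry12 over Cx3cr1. C1qa lay above C1qb in 6 of 12 libraries and Cx3cr1 above Tmem119 in 4, so these neighbours did not differ beyond their spread. Trem2 over Csf1r held in 11 libraries, Csf1r over P2ry12 in 10 and Tmem119 over Aif1 in 8, each with overlapping ranges. The place of Trem2 depends on the length used: over the union of its exons, 4946 bases in place of 1088, it came 9th of the 9.

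Ratios between members were taken within each library. C1qa over C1qb, per kilobase, ran from 0.953 to 1.22 with a median of 1.02, and C1qc over C1qb from 0.640 to 0.803. Tmem119 over Cx3cr1 ran from 0.872 to 1.07. Wider spans were found for P2ry12 over Cx3cr1, from 1.02 to 1.55, for Trem2 over Csf1r, from 0.918 to 1.41, and for P2ry12 over Csf1r, from 0.658 to 1.05. The biological coefficient of variation that edgeR estimates between libraries of a group had a median of 0.0747 over the 9 members. It was 0.0771 over the 7820 tested genes in the same range of CPM. This estimate leaves out counting noise and draws each gene toward others of like level, so a close match is partly built in.

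Of the 9 microglia genes, Csf1r alone passed the test for valproic acid. Averaged over the genotypes, Csf1r rose 1.13-fold, from 69.4 to 78.6 CPM, and all 9 genes had a log2 fold change above 0, with a median of 0.14 against 0.01 over all 17995 tested genes. In this comparison 5.99% of tested genes passed in either direction and 2.12% passed as higher, by edgeR's quasi-likelihood test at a Benjamini-Hochberg adjusted p under 0.05. At an unadjusted p under 0.05 there were 6 of the 9 members, against 21.8% of all tested genes. None of the 9 genes had values in the 6 exposed libraries that were free of overlap with the 6 unexposed ones, as 3.14% of tested genes had.

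**Figure D1:**
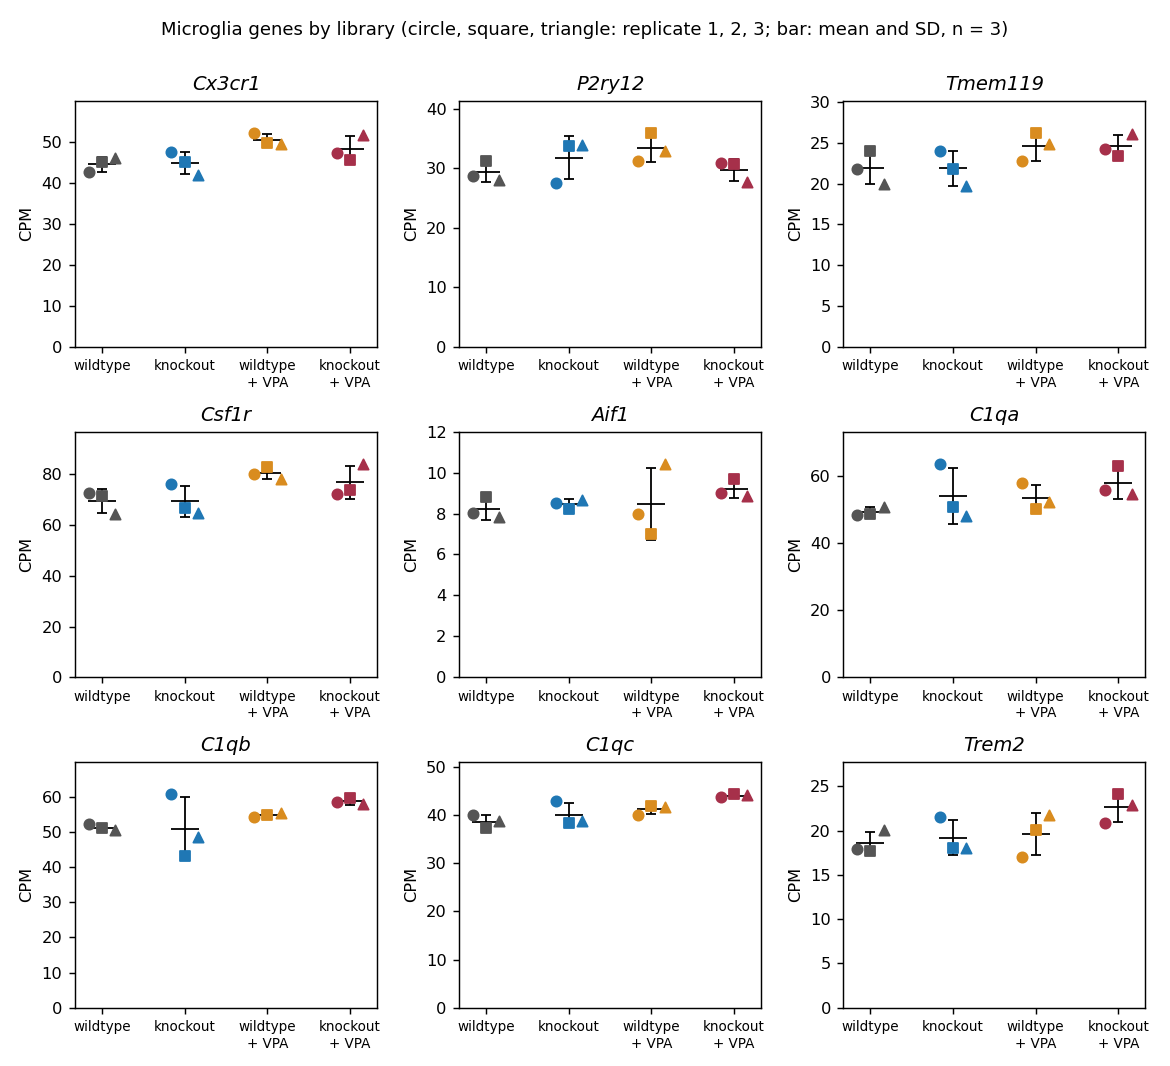
Level of each of the 9 microglia genes in each of the 12 libraries, in CPM (counts scaled to the library total), by group (VPA, valproic acid). Circles, squares and triangles are replicates 1, 2 and 3, and bars give the group mean and SD (n = 3). Csf1r lies at 78.2 to 82.8 in exposed wildtype, above the 64.3 to 72.8 of untreated wildtype.

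Csf1r was at 72.8, 71.4 and 64.3 CPM in untreated wildtype and at 80.3, 82.8 and 78.2 CPM in wildtype after valproic acid. The untreated knockout had 76.3, 66.8 and 65.0 CPM and the exposed knockout 72.4, 73.8 and 84.3 CPM. All 3 exposed wildtype libraries were above all 3 untreated ones, while the knockout groups overlapped through replicate 1 of the untreated knockout. The log2 fold change averaged over the genotypes was 0.18 (SE 0.0538, edgeR adjusted p = 0.0479, n = 6 libraries a side). It was 0.21 (SE 0.0758, edgeR adjusted p = 0.181) within wildtype and 0.15 (SE 0.0764, edgeR adjusted p = 0.368) within knockout. Leaving out each library in turn gave 0.075 to 0.22 within knockout, the highest without replicate 1 of the untreated knockout. The averaged call is close to the threshold: it was lost in 15 of 21 other settings, with adjusted p from 0.0219 to 0.211, while the log2 fold change stayed above 0 in all 21, from 0.14 to 0.22. With sex, read from Xist, as a term, it was 0.15 with an adjusted p of 0.211. Exons of Csf1r share 873 bases with Hmgxb3 on the opposite strand, and as the strand setting of the counting is unknown, reads there cannot be told apart. Hmgxb3 had 25.04 to 30.42 CPM over the libraries and a log2 fold change of 0.10 (edgeR adjusted p = 0.352) in the same comparison. P2ry12 shares 9 exon bases with Med12l and Cx3cr1 shares 78 with Gm33858, also on opposite strands.

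Cx3cr1 was at 42.6, 45.1 and 46.0 CPM in untreated wildtype and at 52.2, 49.8 and 49.5 CPM after valproic acid. These wildtype groups did not overlap. In the knockout it was at 47.6, 45.1 and 42.0 CPM untreated and 47.2, 45.7 and 51.8 CPM exposed, with overlap. The log2 fold change was 0.18 within wildtype (SE 0.0728, edgeR adjusted p = 0.238), 0.10 within knockout and 0.14 averaged (edgeR adjusted p = 0.104).

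P2ry12 was the member whose values went opposite ways in the genotypes. It was at 28.7, 31.3 and 28.1 CPM in untreated wildtype and 31.3, 35.9 and 32.9 CPM in exposed wildtype. The knockout had 27.6, 33.8 and 33.9 CPM untreated and 30.9, 30.8 and 27.7 CPM exposed. So exposed wildtype lay above exposed knockout without overlap, and above untreated wildtype by only the margin between 31.31 and 31.30 CPM. The log2 fold change after valproic acid was 0.18 (SE 0.0892, edgeR adjusted p = 0.350) within wildtype and -0.09 (SE 0.0904, edgeR adjusted p = 0.680) within knockout, or -0.19 without replicate 1 of the untreated knockout. The test of the difference between them, the interaction, gave -0.28 (SE 0.127) with an unadjusted p of 0.0392 and an edgeR adjusted p of 0.833 over all genes, and it did not pass. Without that replicate the interaction was -0.37.

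Trem2 was at 17.9, 17.7 and 20.1 CPM in untreated wildtype and 17.1, 20.1 and 21.8 CPM in exposed wildtype. In the knockout it was at 21.5, 18.1 and 18.0 CPM untreated and 20.8, 24.1 and 22.9 CPM exposed. Exposed knockout held the 2 highest values of the 12, and its remaining library lay below replicate 1 of the untreated knockout. The log2 fold change was 0.08 within wildtype (SE 0.105, edgeR adjusted p = 0.801), 0.24 within knockout (SE 0.105, edgeR adjusted p = 0.282) and 0.16 averaged (SE 0.074, edgeR adjusted p = 0.218). Over left-out libraries the value within knockout ranged from 0.18 to 0.33, the highest without replicate 1 of the untreated knockout.

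Tmem119 and Aif1, used mainly as identity markers of microglia, did not pass in any comparison. Tmem119 was at 20.01 to 24.03 CPM in untreated wildtype, 22.7 to 26.2 CPM in exposed wildtype, 19.7 to 24.1 CPM in untreated knockout and 23.4 to 26.1 CPM in exposed knockout. Its log2 fold change after valproic acid was 0.17 within each genotype. Within knockout it ranged from 0.0971 to 0.24 over left-out libraries, the highest without replicate 1 of the untreated knockout. Aif1, with the lowest counts of the 9 (145 to 205 a library), was at 7.82 to 8.82 CPM in untreated wildtype and 6.99 to 10.4 CPM in exposed wildtype. It was at 8.24 to 8.66 CPM in untreated knockout and 8.87 to 9.68 CPM in exposed knockout, which did not overlap. The log2 fold change averaged over the genotypes was 0.08 (SE 0.0976, edgeR adjusted p = 0.704).

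The chains of C1q had log2 fold changes after valproic acid, averaged over the genotypes, of 0.11 for C1qa, 0.15 for C1qb and 0.11 for C1qc. None of the 3 passed edgeR's test (adjusted p = 0.353, 0.144 and 0.186). C1qb was at 52.3, 51.0 and 50.4 CPM in untreated wildtype and at 54.2, 54.8 and 55.3 CPM in exposed wildtype. In the knockout it was at 60.8, 43.2 and 48.6 CPM untreated and 58.5, 59.7 and 57.9 CPM exposed. The untreated knockout was the only group in which the libraries of C1qb spread widely, with an SD of 8.99 CPM against 0.587 to 0.946 CPM in the other 3 groups. Within knockout the log2 fold change of C1qb was 0.21, and 0.0991 to 0.36 over left-out libraries, the highest without replicate 1 of the untreated group. Without that replicate C1qb also passed the averaged test, with a log2 fold change of 0.23 and an edgeR adjusted p of 0.0119. As that library was singled out after its values were seen, no weight is put on this call. C1qc, at 38.3 to 43.0 CPM in untreated and 43.7 to 44.4 CPM in exposed knockout, did not overlap between these groups. C1qa was at 48.0 to 63.6 CPM in untreated and 54.4 to 63.0 CPM in exposed knockout, with overlap. Its log2 fold change of 0.09 there ranged from 0.0134 to 0.23 over left-out libraries, the highest without replicate 1 of the untreated group.

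**Figure D2:**
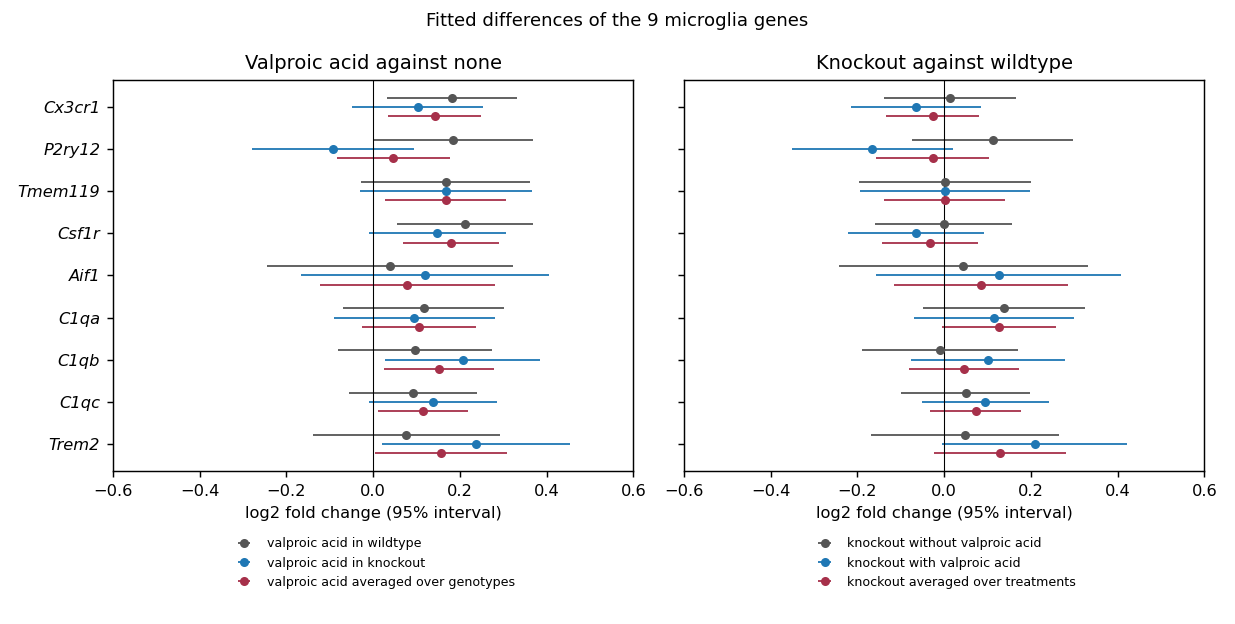
Log2 fold change of each microglia gene (points) with the 95% confidence interval of the edgeR fit (lines), for valproic acid against none at left and knockout against wildtype at right, each within both levels of the other factor and averaged. Csf1r for averaged valproic acid, at 0.18, is the only value past the adjusted test.

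Within wildtype alone, 0 of the 9 genes passed edgeR's test, DESeq2's Wald test or limma-voom after valproic acid, where 0.895% of all tested genes passed edgeR's. At an unadjusted p under 0.05 there were 3 (Csf1r, Cx3cr1 and P2ry12), where 14.2% of all tested genes were. The groups did not overlap for 4 of the 9 (Csf1r, Cx3cr1, P2ry12 and C1qb), all higher, against 9.84% of tested genes higher without overlap. All 9 values were above 0, with a median of 0.12 against 0.01 over all tested genes, of which 51.5% were above 0. The 95% confidence intervals of the 9 ratios reached from 0.843 to 1.29.

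Within the knockout, 0 of the 9 passed by any of the same tools, where 0.0556% of tested genes passed edgeR's. At an unadjusted p under 0.05 there were 2 (C1qb and Trem2), against 14.9% of all tested genes, and C1qc and Aif1 were higher without overlap, against 9.88%. The values were above 0 for 8 of 9, P2ry12 being the exception, with a median of 0.14. Over left-out libraries that median ranged from 0.0995 to 0.22, the highest without replicate 1 of the untreated knockout. The wildtype and knockout comparisons differed in which genes led, but no member passed the interaction test, which 0.0% of tested genes passed in edgeR. P2ry12 was the single member with an unadjusted p under 0.05 for it, against 5.97% of tested genes.

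No microglia gene passed the test between untreated knockout and untreated wildtype: 0 of 9 passed with edgeR, DESeq2 or limma-voom, where 0.0389% of tested genes passed edgeR's test. No member had an unadjusted p under 0.05, against 3.13% of tested genes, and no member's groups were free of overlap, against 7.39%. The log2 fold changes ran from -0.01 for C1qb to 0.14 for C1qa, and the 95% intervals of the ratios reached from 0.846 to 1.26, so differences within these bounds are not excluded. Without replicate 1 of the untreated knockout the value for C1qa was 0.0031, that for C1qb -0.16 and that for P2ry12 0.20 in place of 0.11, and the median of 0.04 was -0.03.

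After valproic acid, 0 of 9 differed between the genotypes by edgeR, DESeq2 or limma-voom, where 0.05% of tested genes passed edgeR's test, and no member had an unadjusted p under 0.05, against 7.44% of tested genes. C1qb and C1qc were higher in the knockout without overlap, against 6.96% of tested genes, and P2ry12 was lower without overlap, where 13.2% did not overlap in either direction. Exposed knockout had 57.9 to 59.7 CPM of C1qb and exposed wildtype 54.2 to 55.3 CPM, a log2 difference of 0.10 (SE 0.086, edgeR adjusted p = 0.856). P2ry12 had a log2 difference of -0.17 (SE 0.0895, edgeR adjusted p = 0.717), and Trem2 had the highest value, 0.21 (SE 0.104, edgeR adjusted p = 0.679). The intervals of the ratios reached from 0.785 to 1.34. Averaged over the treatments, 0 of 9 passed edgeR, DESeq2 or limma-voom, where 0.05% of tested genes passed edgeR's test. None had an unadjusted p under 0.05, against 4.42% of tested genes, none was free of overlap between the genotypes, against 0.189%, and the log2 fold changes lay between -0.03 and 0.13.

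C1qb and Trem2 had the 2 highest values after valproic acid within the knockout, and the 250 bases before their annotated start hold no annotated exon. These windows are shown to let the sequence next to the start be read beside the values. Of the 9 members, 6 matched the RefSeq promoter table, which is on build GRCm38.p6. The capitals mark a match to AGGAAG, read here on the reverse strand as CTTCCT. It holds GGAA, the core bound by the ETS family of transcription factors, to which the myeloid regulator PU.1 belongs. The window of C1qb is chr4:136886201-136886450 on the minus strand, and that of Trem2 is chr17:48346151-48346400 on the plus strand.
C1qb: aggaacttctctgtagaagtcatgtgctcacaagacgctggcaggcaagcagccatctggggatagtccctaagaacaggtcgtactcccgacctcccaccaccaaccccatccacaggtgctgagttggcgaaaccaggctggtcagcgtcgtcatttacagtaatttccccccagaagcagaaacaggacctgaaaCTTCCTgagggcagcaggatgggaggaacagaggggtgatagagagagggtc
Trem2: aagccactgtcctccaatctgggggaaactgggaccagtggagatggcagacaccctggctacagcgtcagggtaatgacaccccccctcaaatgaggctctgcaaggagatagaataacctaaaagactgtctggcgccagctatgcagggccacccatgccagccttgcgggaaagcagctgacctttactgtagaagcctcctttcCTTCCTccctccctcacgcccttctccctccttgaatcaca

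The match lies 52 to 47 bases before the start of C1qb and 41 to 36 bases before that of Trem2. P2ry12 also has AGGAAG 52 to 47 bases before its start, and its value within the knockout was -0.09. On either strand, AGGAAG was in 4 of the 6 member promoters in the table (C1qb, C1qc, P2ry12 and Trem2) and in 29.2% of all 27025 promoters. The longer GAGGAAGT, which holds AGGAAG, was in that of C1qc and in 2.44% of all. TATAAA was in none of the 6 and in 13% of all. A match describes letters in a window and is not a measured binding site.

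Other microglia and myeloid genes were read from lists of known markers, beside the 5.99% of all tested genes that passed the averaged valproic acid test, so that 1 call in a list of this size lies near the background. Of 12 other homeostatic microglia genes, 1 rose after valproic acid averaged over the genotypes: Siglech, a lectin of the sialic acid-binding family, at a log2 fold change of 0.25 (SE 0.069, edgeR adjusted p = 0.0315). In the list, 8 of 12 values were above 0, with a median of 0.08. Gpr34, a receptor for lysophosphatidylserine, was at -0.19 (edgeR adjusted p = 0.112) and Csf3r, the receptor for granulocyte colony-stimulating factor, at 0.31 (edgeR adjusted p = 0.117). Sall1, a transcription factor of microglial identity, was at -0.0001. Among 19 myeloid signalling and adhesion genes, Laptm5, a lysosomal membrane protein of blood-lineage cells, rose (0.28, SE 0.0652, edgeR adjusted p = 0.0132), and 15 values were above 0 with a median of 0.09. None of 7 myeloid transcription factor genes passed with edgeR, DESeq2 or limma-voom, with 6 above 0, a median of 0.08 and 1 gene at an unadjusted p under 0.05. DESeq2 and limma-voom also called Siglech and Laptm5 and no other gene of these 3 lists.

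No gene for a ligand of these receptors passed the test. Of 9 ligand and partner genes 0 passed edgeR's averaged test or limma-voom, with 4 at an unadjusted p under 0.05, and DESeq2 called 1, Clu, an apolipoprotein that astrocytes make, as higher. Csf1, a ligand of CSF1R, was at 0.20 (edgeR adjusted p = 0.0757), and Il34, the other ligand, at 0.01. Cx3cl1, which encodes fractalkine, was at 0.01, and Cd200, a neuronal restraint on myeloid cells, at -0.20 (edgeR adjusted p = 0.0691). Of 11 complement genes outside C1q, 0 passed with edgeR, DESeq2 or limma-voom, 1 had an unadjusted p under 0.05 in edgeR and 9 were above 0, with a median of 0.13.

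Genes of reactive microglia gave few calls. The disease-associated list summed to 7024 to 8980 CPM a library, against 323 to 378 CPM for the 9 members. In bulk tissue the cells that express its genes cannot be told apart. Of the 14 disease-associated microglia genes tested of 16 listed, 0 passed the averaged test with edgeR, DESeq2 or limma-voom, with 4 at an unadjusted p under 0.05 in edgeR. Among them Lpl, lipoprotein lipase, was at -0.22 (edgeR adjusted p = 0.0615). Within wildtype, Cd9, a tetraspanin that other glia also express, fell (-0.31, SE 0.073, edgeR adjusted p = 0.0412). Of 7 inflammatory genes tested of 16 listed, 1 passed the valproic acid test averaged over the genotypes. It was Nfkbia, an inhibitor of NF-kB that many cell types express, which rose (0.36, SE 0.0814, edgeR adjusted p = 0.0123). The inflammatory genes not tested were too low, such as Tnf, Il6 and Il1b: Tnf had 0 to 4 counts a library, Il6 0 to 3 and Il1b 2 to 12. None of 9 interferon response genes passed the averaged test with edgeR, DESeq2 or limma-voom, with 2 at an unadjusted p under 0.05. No gene of these microglia and myeloid lists passed within the knockout, in the untreated genotype comparison, in the genotype comparison after exposure or in the interaction by edgeR or limma-voom. DESeq2 called Cd47 as lower after exposure within the knockout and Cd9 as higher in exposed knockout than in exposed wildtype.

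Other macrophages and blood cells share several of the 9 genes. Of 9 border macrophage genes tested of 10 listed, 0 passed the averaged test with edgeR or limma-voom and 1 had an unadjusted p under 0.05 in edgeR. That gene was Stab1, a scavenger receptor, at 0.34 (edgeR adjusted p = 0.0592), which DESeq2 called. In the list 8 of 9 were above 0 with a median of 0.16. The summed level of this list was 28.5 to 33.3 CPM in untreated wildtype and 28.3 to 44.3 CPM in exposed wildtype. It was 28 to 33.3 CPM in untreated knockout and 33.7 to 40.0 CPM in exposed knockout. Mrc1, the mannose receptor of border macrophages, had 53 to 100 counts a library and Cd163 had 35 to 87. The part of these cells in the values of the 9 genes was not tested. Of 13 blood cell markers 7 were tested and 0 passed the averaged test with edgeR, DESeq2 or limma-voom, with 2 at an unadjusted p under 0.05. These markers include the red cell genes Hbb-bs, Hba-a1 and Alas2, so their sum is not a measure of white blood cells alone. Their summed level was 147 to 217 CPM in untreated and 93.1 to 131 CPM in exposed wildtype, without overlap. It was 117 to 282 CPM in untreated and 146 to 186 CPM in exposed knockout. Within wildtype their median log2 fold change was -0.64, with 3 of 7 at an unadjusted p under 0.05, and the part of blood cells in the values of the 9 genes was not tested. Ly6g, of neutrophils, had 0 counts throughout.

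The sum of the 9 members overlapped between exposed and unexposed libraries, through 1 of the unexposed ones. It was 332, 335 and 326 CPM in untreated wildtype and 363, 368 and 367 CPM in exposed wildtype. The untreated knockout had 373, 326 and 323 CPM and the exposed knockout 363, 375 and 378 CPM. The 6 exposed libraries thus lay at 363 to 378 CPM and 5 unexposed ones at 323 to 335 CPM, with replicate 1 of the untreated knockout among the exposed. In that library 7 of the 9 members were above their mean over the 12, against 0 to 3 in the other 5 unexposed and 5 to 8 in the exposed libraries. Summed forebrain markers were also highest there, at 964 CPM against 669 and 729 CPM in the other untreated knockouts. In wildtype they went the other way from the members, with 824 to 847 CPM untreated and 618 to 659 CPM exposed, without overlap. Exposed knockout had 569 to 722 CPM. The part of forebrain content in the microglia values was not tested. The split of the exposed libraries from 5 unexposed ones was not particular to the members. How many tested genes split in this way was not counted. The myeloid signalling and adhesion genes, summed, were at 224 to 239 CPM in the exposed libraries and at 206 to 217 CPM in the same 5 unexposed ones, with replicate 1 of the untreated knockout at 233 CPM. The 12 other homeostatic microglia genes, summed, did not separate the groups: they spanned 200 to 214 CPM in untreated and 212 to 220 CPM in exposed wildtype, and 196 to 211 CPM in untreated and 197 to 216 CPM in exposed knockout.

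**Figure D3:**
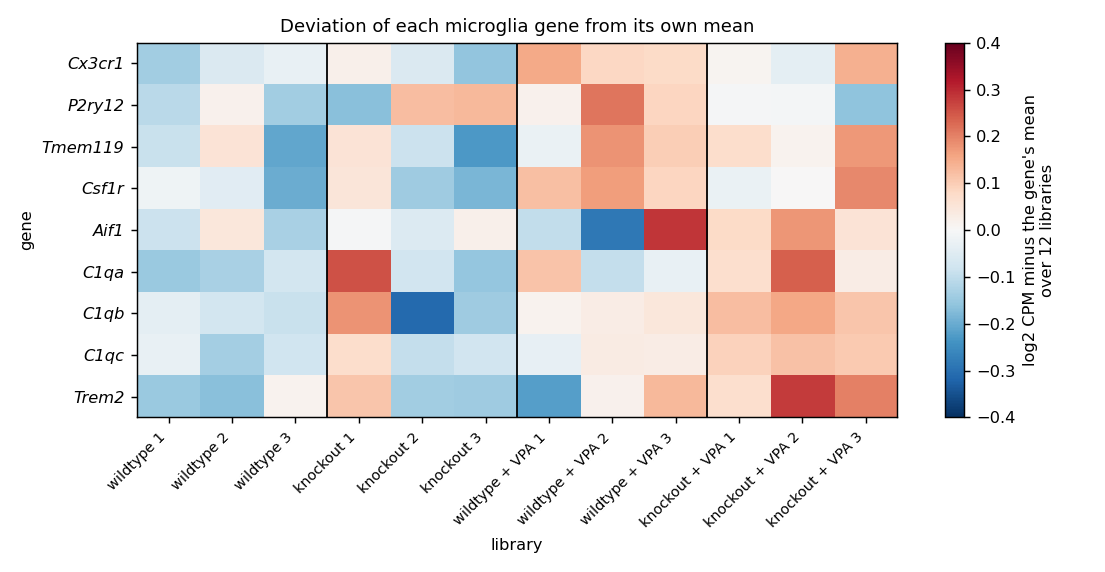
Log2 CPM of each microglia gene minus its mean over the 12 libraries, as colour (red above, blue below), with genes in rows and libraries in columns by group (VPA, valproic acid). Replicate 1 of the untreated knockout has 7 of 9 members above their mean, as exposed libraries do with 5 to 8.

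How the members varied together was described after removing the group means, over 12 libraries that share their preparation and scaling. Of the 36 pairs, 24 had a Pearson correlation above 0 and 9 were above 0.5, with a median of 0.21. The highest was C1qb with C1qc, at 0.83, followed by Tmem119 with Csf1r at 0.77. C1qc with Trem2 and C1qa with C1qb were both at 0.69. P2ry12 was below 0 with all 8 others, down to -0.69 with Cx3cr1. Much of this rests on 1 library: without replicate 1 of the untreated knockout the median was -0.06 and 14 of 36 pairs were above 0. Then 2 pairs stayed above 0.5, Tmem119 with Csf1r at 0.67 and C1qc with Trem2 at 0.53, C1qb with C1qc was at 0.37, and P2ry12 was below 0 with 5 of 8. Leaving out any other library gave medians of 0.13 to 0.31.

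**Figure D4:**
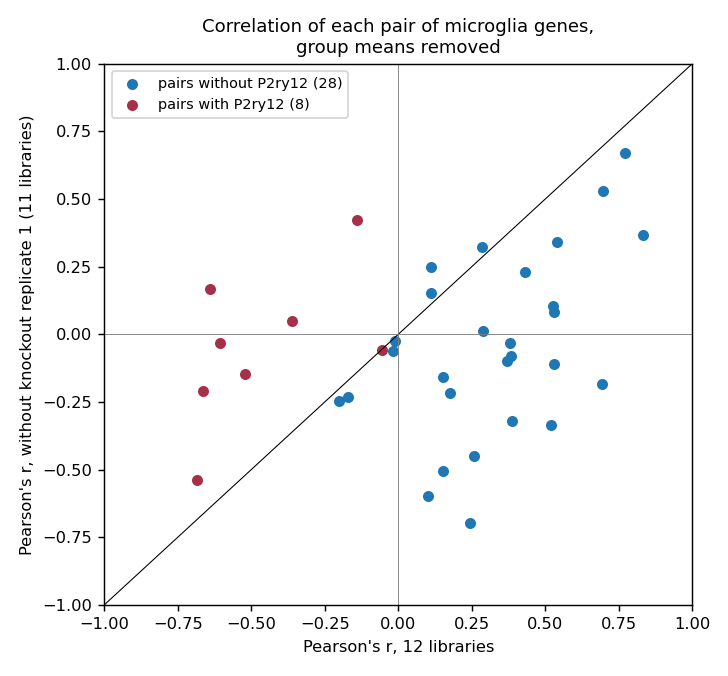
Pearson correlation of each of the 36 pairs of microglia genes after removal of group means, over 12 libraries (x axis) and without replicate 1 of the untreated knockout (y axis), with pairs that hold P2ry12 in red and a line where both are equal. Most pairs without P2ry12 lie below the line, and the median goes from 0.21 to -0.06.

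The named genes closest to the mean of the members across libraries were not microglia genes. The correlation with that mean was taken over 12 libraries, with group means removed from both, for the 15303 genes that averaged 1 CPM or more. Members and predicted, Rik, unnamed and mitochondrial genes were then left out. The nearest of the rest were Retreg2 (0.97), Drd2 (0.95), Phlda3 (0.95), Usp21 (0.94), Rab11b-ps2 (0.94), Adora2a (0.94), Rasd2 (0.94) and Drd1 (0.93). Drd1, Drd2, Adora2a and Rasd2 are genes of striatal projection neurons. Without replicate 1 of the untreated knockout these 4 were at 0.82, 0.69, 0.74 and 0.63, while Retreg2 and Usp21 were at 0.92 and 0.91. Of the other homeostatic microglia genes, 2 of 12 were above 0.5, against 11.6% of all genes, and of the myeloid signalling and adhesion genes 7 of 18 were. Such shares were not particular to myeloid lists: oligodendrocyte markers had 4 of 8 above 0.5 and forebrain markers 3 of 8. Astrocyte markers had 0 of 8 and border macrophage markers 0 of 7.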

How the data were processed

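RNA was sequenced from 12 mouse brain libraries, 3 in each of 4 groups. Per the labels, total RNA was purified on columns and cleared of ribosomal RNA before NEBNext Ultra library preparation. The deposited values are raw counts for each Ensembl identifier: whole numbers whose totals differ between libraries, with no normalization. The submitters' processing notes name HISAT2 and GRCm39 (mm39) without versions. No source used here gives the counting program, annotation release or strand setting. Of 56748 genes, 22955 had no count.

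Symbols for 52073 identifiers (99.51% of counts), transcript lengths and overlaps came from an annotation on GRCm38, so no gene positions on GRCm39 are given. edgeR 4.0.16 in R 4.3.3 fitted a mean per group to the 17995 genes kept by filterByExpr, with TMM factors (0.93 to 1.02) and the robust quasi-likelihood test, two-sided, adjusted over all tested genes by Benjamini-Hochberg at 0.05. The 7 contrasts were valproic acid in each genotype, knockout in each treatment, the interaction and both averages. CPM values use TMM-scaled library totals. DESeq2 1.42.0, limma 3.58.1 (voom), other scalings and filters, left-out libraries, a replicate block and a sex term read from Xist were alternatives. Leaving out each library from the correlations was added after seeing the data. Descriptions and plots used Python 3.11.15 (pandas 2.3.3, numpy 2.4.6, matplotlib 3.10.9).

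The members and lists were chosen with earlier results of these data known. The rule named the 9 members, list genes past the test, up to 2 genes per list with the smallest p in a comparison, and the 8 genes most like the members. Other list genes, such as Il34, Cx3cl1 and Sall1, the low inflammatory genes and the checks of tissue, were named after their values were seen. Correlations carry no p and describe these libraries.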

Additional observations from a re-analysis of the deposited data

How the results depend on the processing

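With 3 libraries a group the intervals above set the precision, and counts of 145 to 205 a library limit Aif1 most. Csf1r passed the averaged valproic acid test of edgeR (0.18, adjusted p = 0.0479) in 6 of 21 alternatives. It did not pass, and 0 members passed, with DESeq2 size factors in edgeR (0.17, adjusted p = 0.0587), DESeq2's Wald test (adjusted p = 0.0527), limma-voom (adjusted p = 0.0517), the replicate block, without both Xist-lacking libraries (edgeR adjusted p = 0.185) or with a sex term (edgeR adjusted p = 0.211). Leaving out each library gave 0 to 2 members, a Csf1r value of 0.1432 to 0.2168 and a C1qb value of 0.0977 to 0.2266. The cause was not tested.

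Replicate numbers recur across the groups, but deviations of same-numbered libraries correlated at -0.062 to 0.115, so they were taken to share only a number. With the replicate block the averaged Csf1r value was 0.18 (edgeR adjusted p = 0.0661), and 876 genes passed the averaged test in place of 1078, 115 in place of 161 within wildtype and 6 in place of 10 within knockout. Over all alternatives, left-out libraries included, the genes past the averaged valproic acid test numbered 172 to 1453. The lowest number came with the sex term, and 298 passed without both Xist-lacking libraries. Both of these libraries are in exposed groups, so sex and exposure are partly confounded, and the 5.99% background holds for the fit without a sex term. Genes past the valproic acid test numbered 14 to 512 within wildtype and 2 to 391 within knockout. The knockout tests called 6 to 15 genes untreated, 7 to 86 exposed and 7 to 46 averaged, and the interaction 0 to 5.

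The other values that changed sign passed no test in the comparison concerned. For Aif1 within wildtype after valproic acid (0.04), the value was -0.1312 without both Xist-lacking libraries and -0.0373 with the sex term. In the untreated knockout, Csf1r (-0.0015) was at 0.0016 with a filter at 1 CPM, and at 0.0004 both with only the compared libraries and without the Xist-lacking ones, and Tmem119 (0.0012) at -0.0001 with no filter. Tmem119 in the exposed knockout (0.0018) was at -0.0031 with DESeq2 size factors, -0.0091 with no filter, -0.0028 with DESeq2, -0.0448 without the Xist-lacking libraries and -0.0007 with the sex term. Its interaction (0.0006) was, in the same order, -0.0047, -0.0089, -0.0052, -0.0479 and -0.0019, and -0.0024 with the 1 CPM filter and -0.0048 with limma-voom. Its average knockout value (0.0015) was -0.0008, -0.0046, -0.0001 and -0.0208 under the first 4 of these.

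Leaving out each library in turn moved log2 fold changes across 0 as follows. For valproic acid, Aif1 ranged from -0.1311 to 0.1599 within wildtype and from -0.0101 to 0.1394 averaged, and P2ry12 from -0.0001 to 0.0722 averaged. In the untreated knockout the ranges were -0.0307 to 0.0586 for Cx3cr1, -0.0727 to 0.0692 for Tmem119, -0.0758 to 0.0441 for Csf1r, -0.1603 to 0.0976 for C1qb, -0.0053 to 0.0807 for C1qc and -0.0431 to 0.1094 for Trem2. In the exposed knockout Tmem119 ranged from -0.0529 to 0.0516. For the interaction, Tmem119 ranged from -0.0681 to 0.0745, Csf1r from -0.1364 to 0.0107, Aif1 from -0.0411 to 0.2419 and C1qa from -0.101 to 0.1122. For the averaged knockout, P2ry12 ranged from -0.0512 to 0.0198, Tmem119 from -0.0354 to 0.0352 and C1qb from -0.03 to 0.099. The median of the 9 members ranged from 0.0995 to 0.2221 for valproic acid within the knockout, from -0.0307 to 0.0654 for the untreated knockout and from -0.0681 to 0.0857 for the interaction.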

Other observations

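In the same libraries, 5.99% of tested genes passed edgeR's test for valproic acid averaged over the genotypes. Of 8 neuron markers 3 passed, with 4 above 0 and a median of -0.04. Gad1 and Gad2, the enzymes of GABA synthesis, fell by 0.41 and 0.44 on the log2 scale, and Slc17a7, the vesicular glutamate transporter of cortical neurons, rose by 0.23. Of 8 forebrain markers 2 passed: Drd1, the dopamine receptor of striatal neurons, fell by 0.64 and Bcl11b, a transcription factor of striatal and deep cortical neurons, fell by 0.24. Of 8 meningeal fibroblast markers Aldh1a2 and Slc6a13 rose, by 0.58 and 0.56, and of 8 endothelial and mural markers Rgs5, of pericytes, fell by 0.18. Of 8 choroid plexus markers 0 passed this test with edgeR or limma-voom, 1 with DESeq2, and 5 had an unadjusted p under 0.05 in edgeR. Their sum was 1315 to 2042 CPM in untreated and 1340 to 2648 CPM in exposed wildtype, and 1818 to 1967 CPM in untreated and 2593 to 3122 CPM in exposed knockout. Their median log2 fold change was 0.04 within wildtype and 0.60 within knockout. The part of tissue composition in the microglia values was not tested.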
